A study of Mus musculus with 12 samples.

Results

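The genes examined here are 10 negative feedback and output genes of the ERK MAP kinase pathway, namely the MAP kinase phosphatase genes Dusp4, Dusp5 and Dusp6, the Sprouty genes Spry1, Spry2 and Spry4, the Sprouty-related genes Spred1 and Spred2, and the ETS transcription factor genes Etv4 and Etv5. They were picked by symbol out of the 28244 genes listed, with the rise of some of them at D10 already known, and all 10 passed the filter on low values. Their values over time are therefore given as a description, without p-values. Primary cells were released by collagenase from the heads and condyles of femurs and tibiae of C57/BL6 pups aged 5 or 6 days, spun into pellets, kept for 7 days in chondrogenic medium and then moved to osteogenic medium for up to 21 days. RNA was sequenced from 12 libraries in 4 groups of 3 replicates, taken on D7 before the change of medium and 1, 3 and 21 days after it, on D8, D10 and D28. All pellets share the strain and the chondrogenic phase, no pellet was kept in chondrogenic medium beyond D7, and the labels do not say whether replicates came from separate litters or cultures. Time in culture and exposure to the second medium therefore cannot be told apart, and p-values measure the spread between these samples, which may be technical.

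In the ERK pathway, growth factor receptors such as those for FGF and EGF activate Ras, the Raf kinases and the MEK kinases, and these phosphorylate the ERK kinases. Active ERK switches on transcription of its own inhibitors. Dusp proteins remove phosphate from MAP kinases, while Sprouty and Spred proteins act upstream on receptors, Ras and Raf, and the Etv factors carry the transcriptional output. In the growth plate, ERK signaling downstream of FGF receptors is known to restrain cartilage growth, and in osteoblasts ERK is known to act on bone-forming transcription factors.

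At D10, 3 days after the change of medium, every one of the 10 genes had its 3 libraries above its 3 D7 libraries. The same held for 25.4% of all genes tested. The median of their log2 differences between D10 and D7 was 2.34, beside 0.05 for all 17674 genes tested, and the range was from 0.33 for Spred1 to 5.50 for Dusp4. By D28 the genes had parted. Dusp4, Dusp5, Spry1, Spred2 and Etv4 had at most 23.5% of that log2 difference left, Spry2 had 39.8%, Dusp6 and Spry4 had 82.8% and 72%, and Etv5 stood higher at D28 than at D10. Spred1 changed too little for such a share and ended with its D28 mean 0.20 below D7. Expression values are log2 of the equalized read count plus 1, so a difference of 1 is a doubling.

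**Figure D1:**
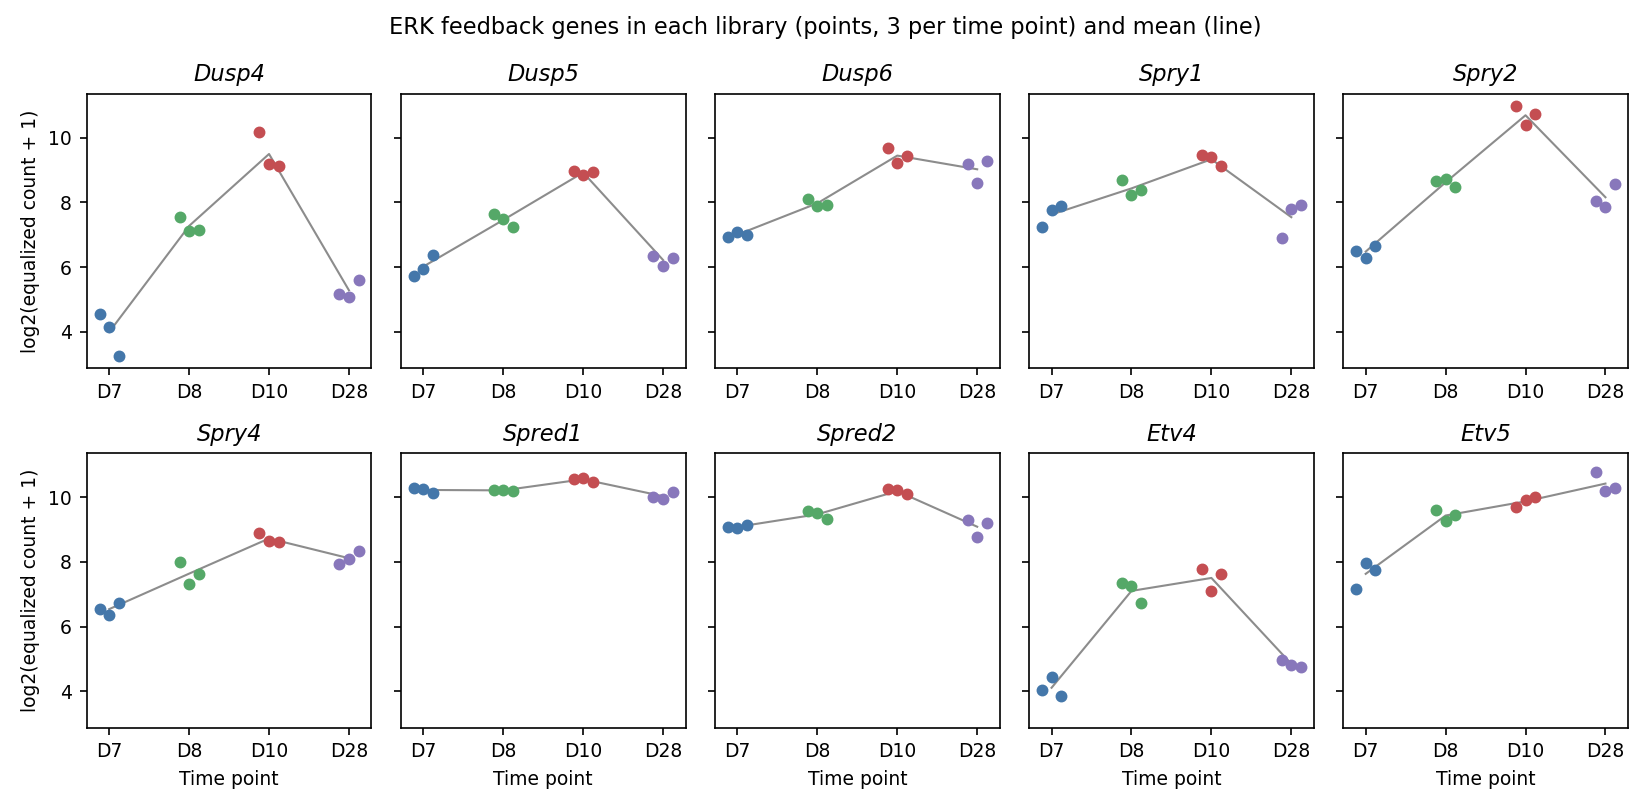
Expression of the 10 feedback genes, as log2 of the equalized count plus 1 (vertical axis), in each of the 12 libraries by time point (horizontal axis, not to scale in days). Points are libraries, 3 per time point, and lines join the means; Etv5 is highest at D28 (mean 10.42) and the other genes at D10.

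Depth limits few of these values. The equalization left all libraries with the same distribution, so original totals are not kept. Relative depth, read from the discrete low levels of each library, was lowest in D10 replicate 1 (0.730) and at most 1.05 in the other D10 libraries, and all D28 libraries were deeper, up to 1.31. D10 replicate 1 also held the highest D10 value of each of the 10 genes but Spred1 and Etv5. With any 1 library left out, 9 of the 10 were still called at D10 against D7. A level of 3 reads stood at a log2 value of at most 2.87, and no value of the 10 genes was that low. Replicates of a time point correlated at 0.986 or more over all genes listed, and no libraries were identical. Cartilage markers (Sox9, Acan, Col2a1, Col9a1, Col9a2, Col11a2, Comp and Matn1) were detected in every library, 8 of 8, and the log2 of their summed level was between 21.35 and 21.39 at D7, 21.30 and 21.53 at D8, 20.30 and 20.32 at D10 and 21.25 and 21.29 at D28. That sum is carried by Col2a1, which stood at the top of the equalized scale in every library of D7, D8 and D28 and at 19.87 in those of D10. At D10 against D7, 5 of the 8 were called lower by limma, while the mean of Sox9 over 3 libraries went from 12.38 (SD 0.30) to 12.44 (SD 0.20). Osteoblast markers were also detected in every library, 7 of 7, with a log2 sum between 18.47 and 19.14 at D7, 17.27 and 18.38 at D8, 16.73 and 17.59 at D10 and 17.44 and 17.60 at D28. That sum is carried by Col1a1, and the 7 did not move together: at D10 against D7 limma called 2 higher (Bglap, with means of 3.21 and 6.46, and Dmp1, with 5.23 and 8.39) and 4 lower (among them Ibsp, with 15.50 and 9.15). Markers of other cell types moved over the same days, and all 4 adipocyte and all 5 muscle markers were above 0 in every D7 library. The log2 of the summed level of 4 adipocyte markers (Adipoq, Plin1, Fabp4 and Lep) was between 11.88 and 12.12 at D7, 9.71 and 10.36 at D10 and 14.76 and 15.13 at D28, with all 4 called lower from D7 to D10 and higher from D10 to D28, and that of 5 skeletal muscle markers (Myod1, Myog, Myh3, Acta1 and Ckm) went from between 10.91 and 11.35 at D7 to between 7.35 and 7.97 at D10 and between 3.32 and 5.58 at D28. For 5 macrophage markers it was between 9.65 and 12.11 in all libraries, and D28 replicate 2 stood apart (Lyz2 at 11.80, against 9.26 and 9.49 in the other D28 libraries). These 5 did not move together, and at D10 against D7 limma called 1 higher and 1 lower. The mean of Cd68 went from 7.32 to 9.20 and that of Adgre1 from 4.98 to 2.80. For 4 endothelial markers the log2 of the sum was between 3.50 and 4.82 at D7, 5.70 and 7.48 at D8, 4.04 and 6.48 at D10 and 3.26 and 4.98 at D28. No marker of these lists was at or under 3 reads in every library. The part of other cell types in the values below was not tested, and in such bulk samples fewer cells of a type and less RNA per cell cannot be told apart.

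Of the MAP kinase phosphatases, Dusp4 encodes an inducible nuclear phosphatase of MAP kinases (chromosome 8, 34807297 to 34819894, GRCm38). Its log2 values were 4.56, 4.16 and 3.26 at D7, then 7.56, 7.12 and 7.14 at D8 and 10.17, 9.18 and 9.14 at D10, and finally 5.18, 5.08 and 5.59 at D28. The 4 time points did not overlap for this gene. It was 45.3-fold higher at D10 than at D7 (log2 difference 5.50, standard error 0.34, and 5.13 to 5.79 with 1 library left out), and 59.6% of that log2 difference was present after 1 day. From D10 to D28 its log2 difference was -4.21 (standard error 0.34). The D7 values rest on few reads, since they lie at levels 6 to 21 of their libraries, and the third D7 library is the shallowest of that day. Without that library the log2 difference between D28 and D7 was 0.92 in place of 1.29.

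Dusp5 encodes a nuclear phosphatase selective for ERK (chromosome 19, 53529109 to 53542431, GRCm38). Its log2 values were 5.74, 5.93 and 6.38 at D7, then 7.64, 7.49 and 7.24 at D8 and 8.98, 8.84 and 8.95 at D10, with 6.34, 6.04 and 6.28 at D28. The D28 values lay among those of D7, with a mean log2 difference of 0.20 (standard error 0.20, and 0.06 to 0.38 with 1 library left out), while D10 was 7.50-fold above D7 (log2 difference 2.91, standard error 0.20). Reads of Dusp5 could be shared with the antisense gene AC137853.2, which overlaps it. The library kit keeps strand, but the strand setting of the counting is not given in the sources used here. That gene was at or under 2.44 on the log2 scale in every library.

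Dusp6 encodes the cytoplasmic phosphatase selective for ERK (chromosome 10, 99263231 to 99267489, GRCm38). It stood at 6.93, 7.08 and 7.00 at D7, at 8.10, 7.90 and 7.92 at D8, at 9.68, 9.23 and 9.43 at D10 and at 9.20, 8.59 and 9.28 at D28, all on the log2 scale. Its D10 mean was 5.45-fold above D7 (log2 difference 2.45, standard error 0.18), and in contrast to Dusp4 and Dusp5 its D28 libraries overlapped those of D10. At D28 it retained 82.8% of the log2 difference between D10 and D7, against 23.5% for Dusp4, while the D28 libraries of Dusp5 overlapped those of D7. Per kilobase of exon, Dusp6 had 2.90 ± 0.74 (SD, n = 3) log2 units more than Dusp4 at D7 and 3.58 ± 0.26 (SD, n = 3) more at D28. At D10 the difference was -0.24 ± 0.40 (SD, n = 3), below 0 in the first pair of libraries and above it in the third.

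Promoter sequences of 7 of the 10 genes were at hand from RefSeq (GRCm38.p6), 8 windows in all, each with 250 bases before to 50 after a start. Dusp4, Spry4 and Etv4 were not among them. Both strands were searched for sites of factors that act downstream of ERK, namely CCGGAAG (ETS factors), TGANTCA (AP-1), TGACGTCA (CRE) and the CArG box of serum response factor. Of all 32851 such windows, 8.86% held the ETS letters, 7.81% the AP-1 letters, 1.79% the CRE letters and 1.63% a CArG box. Among the 8 windows of the feedback genes, 1 held a match, that of Dusp5, with 2 CArG boxes 82 and 72 bases before the start. The 250 bases before the RefSeq start of Dusp5 are shown because they carry these adjoining boxes (capitals), on the plus strand at chr19:53528895-53529144.
Dusp5: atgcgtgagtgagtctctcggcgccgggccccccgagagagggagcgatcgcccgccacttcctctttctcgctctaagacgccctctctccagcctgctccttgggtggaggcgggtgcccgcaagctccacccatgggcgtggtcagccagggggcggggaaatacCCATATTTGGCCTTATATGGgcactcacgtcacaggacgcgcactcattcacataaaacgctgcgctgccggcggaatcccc

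A match describes letters in the sequence and not a bound site, and the lack of one in the other windows says only that those letters are not there.

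The Sprouty genes encode cytoplasmic inhibitors of receptor tyrosine kinase signaling to Ras and Raf. Spry2 (chromosome 14, 105891947 to 105896819, GRCm38) had log2 values of 6.49, 6.29 and 6.66 at D7, of 8.67, 8.72 and 8.47 at D8, of 10.98, 10.38 and 10.72 at D10 and of 8.05, 7.86 and 8.57 at D28. It was 18.5-fold higher at D10 than at D7 (log2 difference 4.21, standard error 0.19), reached 50.8% of that log2 difference at D8 and held 39.8% at D28. The D28 libraries lay above all D7 libraries and overlapped those of D8. Spry1 (chromosome 3, 37639947 to 37644598) stood at 7.23, 7.77 and 7.88 at D7, at 8.69, 8.24 and 8.37 at D8, at 9.45, 9.41 and 9.14 at D10 and at 6.89, 7.81 and 7.93 at D28. Its D10 mean was 3.26-fold above D7 (log2 difference 1.71, standard error 0.24), and its D28 libraries overlapped those of D7, with a log2 difference of -0.08 (standard error 0.24).

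For Spry4 (chromosome 18, 38586247 to 38601415) the log2 values were 6.55, 6.36 and 6.72 at D7, 7.99, 7.31 and 7.62 at D8, 8.91, 8.65 and 8.62 at D10, and 7.93, 8.09 and 8.33 at D28. It was 4.54-fold higher at D10 than at D7 (log2 difference 2.18, standard error 0.19) and kept 72% of that log2 difference at D28, where Spry1 kept none. Divided by exon length, the order of the Sprouty genes changed over time. At D7 Spry1 had the most equalized reads per kilobase, 69.0 ± 15.5 (SD, n = 3), against 42.5 ± 5.42 for Spry2 and 19.5 ± 2.46 for Spry4 (SD, n = 3 each). At D10 Spry2 led with 804 ± 166, followed by Spry1 with 223 ± 25.0 and Spry4 with 89.3 ± 9.87 (SD, n = 3 each). By D28 Spry2 still led with 139 ± 37.0 (SD, n = 3). Spry1 and Spry4 were then at 67.1 ± 23.2 and 58.5 ± 8.35 (SD, n = 3 each), a difference smaller than the spread between replicates.

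The Spred genes, whose membrane-bound products recruit neurofibromin to Ras, varied least. Spred1 (chromosome 2, 117121374 to 117182279) stood at 10.30, 10.26 and 10.12 at D7, at 10.22, 10.22 and 10.20 at D8, at 10.58, 10.61 and 10.48 at D10 and at 10.00, 9.95 and 10.15 at D28, on the log2 scale. Its D10 libraries were above all others, by a log2 difference from D7 of 0.33 (standard error 0.09). Spred2 (chromosome 11, 19924375 to 20024026) had log2 values of 9.07, 9.04 and 9.15 at D7, 9.58, 9.5 and 9.34 at D8, 10.25, 10.22 and 10.10 at D10 and 9.29, 8.76 and 9.22 at D28. Its D28 mean was that of D7, with a log2 difference of 1.10 from D7 to D10 and of -1.10 from D10 to D28 (standard error 0.13 each). Per kilobase of exon, Spred1 was above Spred2 in each library of D7, D8 and D28 and below it in each library of D10.

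The Etv genes encode ETS factors of the PEA3 subfamily, and both had most of their increase within the first day. Etv4 (chromosome 11, 101769742 to 101785371) stood at 4.04, 4.43 and 3.87 at D7, at 7.34, 7.26 and 6.72 at D8, at 7.77, 7.11 and 7.64 at D10 and at 4.98, 4.81 and 4.76 at D28, on the log2 scale. It was 7.98-fold higher at D8 than at D7 (log2 difference 3.00, standard error 0.27), 88.2% of its log2 difference at D10, and its D8 and D10 libraries overlapped. Its D7 values lie at levels 10 to 22 of their libraries. At D28 it was 6.30-fold below D10 (log2 difference -2.66, standard error 0.27), although each D28 library remained above each D7 library.

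Etv5 (chromosome 16, 22381309 to 22439719) had log2 values of 7.18, 7.97 and 7.75 at D7, of 9.60, 9.27 and 9.44 at D8, of 9.70, 9.92 and 10.00 at D10 and of 10.79, 10.20 and 10.28 at D28. It was the sole gene of the 10 with its highest mean at D28, 6.92-fold above D7 (log2 difference 2.79, standard error 0.19) and 1.46-fold above D10 (log2 difference 0.55, standard error 0.19), and its 4 time points did not overlap. Etv5 and Etv4 therefore parted in the last interval. Within a library, the level of Etv5 per kilobase of exon exceeded that of Etv4 by 3.20 ± 0.37 log2 units at D7, by 1.93 ± 0.37 at D8, by 1.97 ± 0.44 at D10 and by 5.22 ± 0.21 at D28 (SD, n = 3 each).

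**Figure D2:**
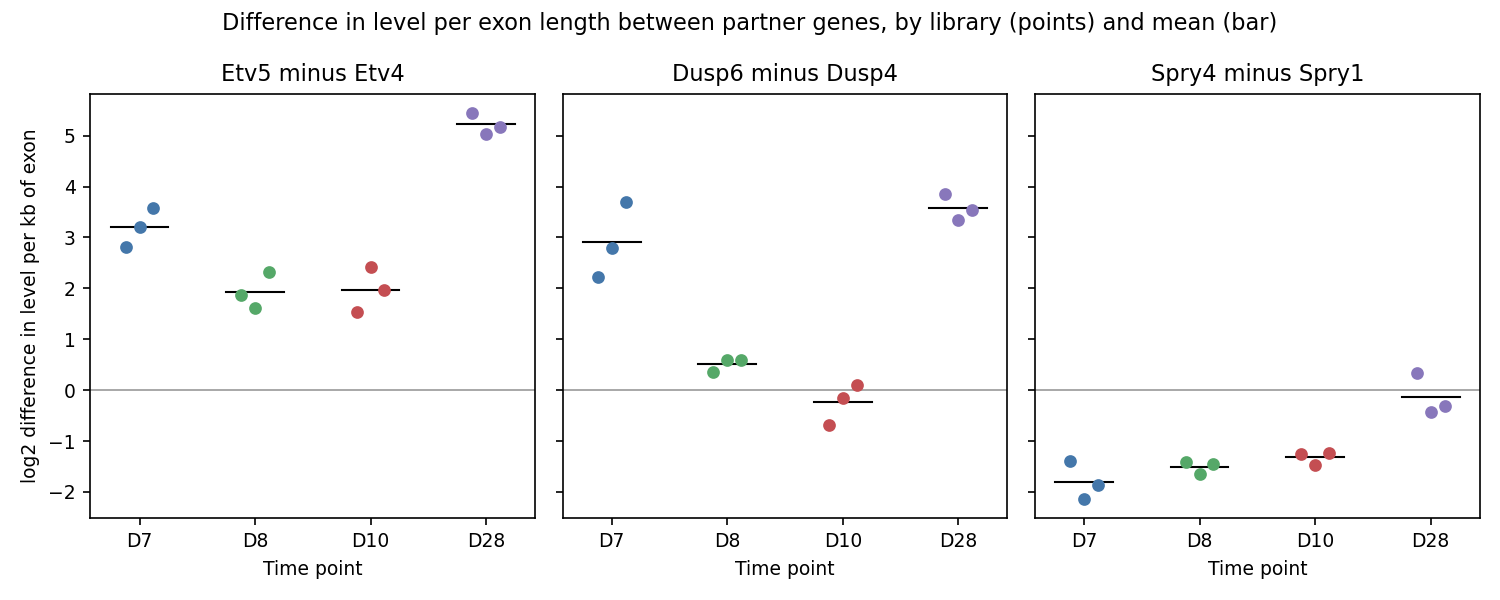
Difference in log2 level per kilobase of exon between partner genes in each library (points, 3 per time point; bars, means) against time point. Etv5 exceeds Etv4 by 5.04 to 5.45 in the D28 libraries and by at most 3.57 in the others, while Dusp6 and Dusp4 come together at D10 and Spry4 and Spry1 at D28.

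Counts of genes past a fixed call rule place these values beside the rest of the transcriptome. The rule, a log2 difference of at least 1 in size and a Benjamini-Hochberg adjusted p under 0.05 over all genes in limma, was also applied to the 10 genes, without support being drawn from it. Between D7 and D8, 6 of the 10 were called higher and none lower, where 7.04% of all genes tested were called, 3.23% higher and 3.81% lower. Those not called at D8 were Dusp6 (log2 difference 0.98), Spry1 (0.80), Spred2 (0.38) and Spred1 (-0.02). Between D8 and D10, 5 were called higher, where 9.66% of all genes were called and 4.08% called higher, and these were Dusp4, Dusp5, Dusp6, Spry2 and Spry4. For D10 against D7 the count was 9 of 10, all but Spred1, where 18.9% of all genes were called, 8.5% higher and 10.4% lower, and the share of all genes with every D10 library above every D7 library was 25.4%.

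Between D10 and D28, 6 of the 10 were called lower (Dusp4, Dusp5, Spry1, Spry2, Spred2 and Etv4), where 27.5% of all genes were called, 13.7% higher and 13.7% lower, and no gene of the 10 was called higher. In 8 of the 10 all D28 libraries lay below all D10 libraries, as in 33.8% of all genes. The median log2 difference of the 10 was -1.44 over this interval, beside -0.10 for all genes. At D28 against D7, Dusp4, Dusp6, Spry2, Spry4 and Etv5 were called higher, 5 of 10, where 17.3% of all genes were called, 8.63% higher and 8.66% lower, and none of the 10 was called lower. Some calls sit at the threshold of 1. Leaving out 1 library brought in Dusp6 at D8 (without D7 replicate 2, or D8 replicate 2 or 3, log2 difference 1.01 to 1.02) and Spry1 between D8 and D10 (without D8 replicate 1, 1.03). It also ended the calls of Spry4 at D8 (without D8 replicate 1, 0.92) and between D8 and D10 (without D8 replicate 2, 0.92, or D10 replicate 1, 0.9994), of Spred2 between D10 and D28 (without D28 replicate 2, the library with the highest sum of macrophage markers, -0.93, and with median-of-ratios scaling, -0.97) and of Dusp4 at D28 against D7 (without D7 replicate 3, 0.92).

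**Figure D3:**
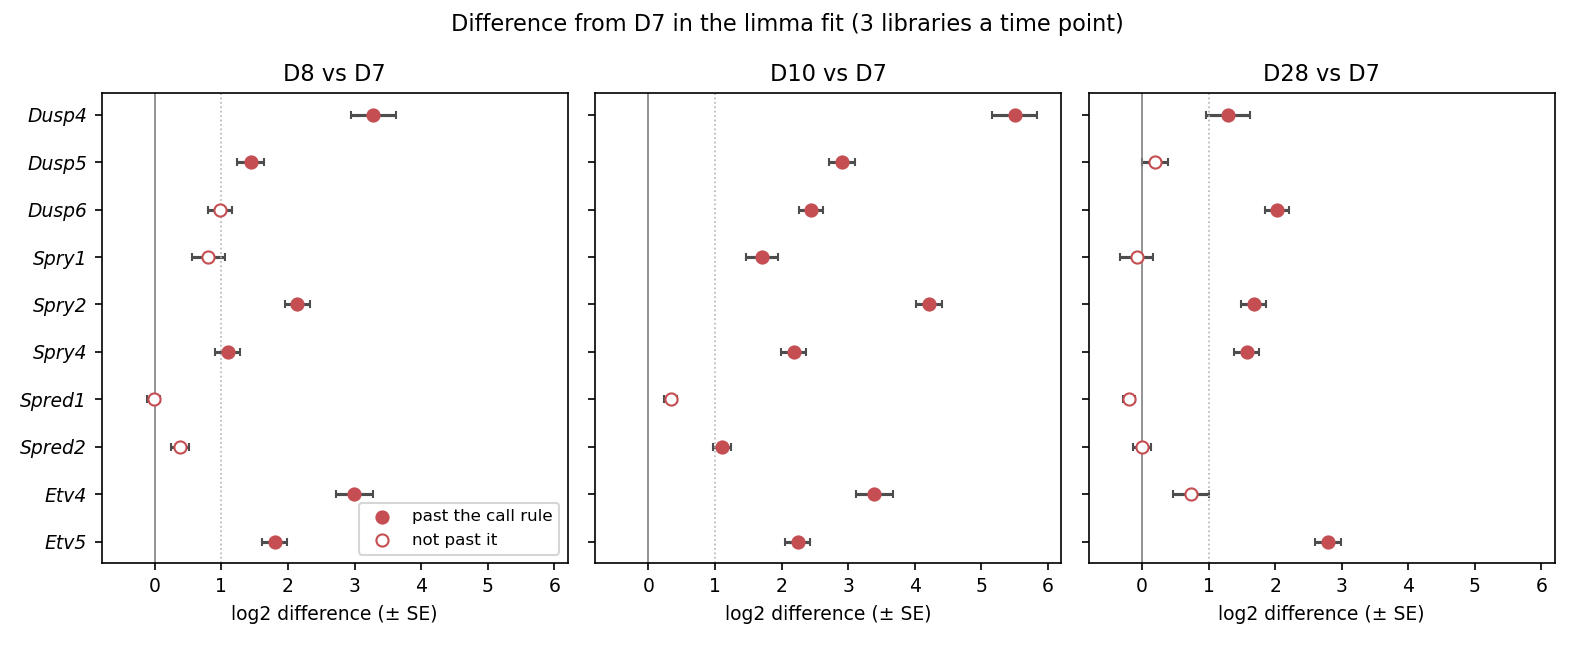
Log2 difference from D7 with its standard error (horizontal axis) for the 10 genes (rows) at D8, D10 and D28, from limma with 3 libraries a time point. Filled points pass the call rule and open points do not, and the dotted line marks a difference of 1; at D10 all points but that of Spred1 (0.33) are filled.

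As a description of likeness, the Pearson correlation of each pair of the 10 genes over the 12 libraries, which share time point and equalization, ranged from -0.063 (Spred1 and Etv5) to 0.963 (Dusp5 and Spred2). Dusp4, Dusp5 and Spry2 followed each other closely, at 0.928 to 0.954, and Dusp6 was most like Spry4, at 0.954. Other genes were drawn from the 3821 with a mean of at least 5 and a standard deviation of at least 0.5, a count made before the 10 genes were left out. The closest to Dusp4 were Hmga1 (0.982), Sh3bp2 (0.982) and Lgals3 (0.978). For Dusp5 they were St6gal1 (0.989), Metrnl (0.986) and Zfand2a (0.986), and for Spry2 they were Smox (0.984), Znhit6 (0.982) and Tecpr1 (0.978). Dusp6 was nearest to Tmem62 (0.974), Cd80 (0.967) and Hspa1a (0.963), and Spry4 to Rapgef3 (0.970), Pgm5 (0.968) and Bdnf (0.968). The closest genes to Spry1 were Ddit3 (0.972), Cmss1 (0.958) and Rassf5 (0.954), to Spred1 Arl5b (0.977) and Crnde (0.969), and to Spred2 Lrrfip1 (0.982), Eps8 (0.979) and Slc23a2 (0.976). Etv4 was nearest to Fam20c (0.982), Mrto4 (0.977) and Procr (0.975). Etv5 was nearest to Atp6v0e2 (0.978), the osteocalcin gene Bglap2 (0.968), whose mean went from 3.18 at D7 to 9.05 at D28, and Mrps6 (0.958).

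The other genes of the pathway were taken from 4 lists with 81 genes, all of them tested. These lists were written with earlier results of these data known. Their counts, shares and p-values here and below are therefore descriptive and not independent support. At D10 against D7, 24 were called higher and 11 lower, 43.2% in all against 18.9% of all genes, and the median log2 difference was 0.31. At D8 against D7 the counts were 8 and 2 (12.3%, against 7.04% of all genes), and at D10 against D8 17 and 6 (28.4%, against 9.66%). From D10 to D28 they were 9 and 24 (40.7%, against 27.5%), and at D28 against D7 7 and 11, a share of 22.2% that is near the 17.3% of all genes. The genes that send the signal moved in both directions. Of 26 ligand and receptor genes, 9 were called higher and 6 lower at D10 (57.7%, against 18.9% of all genes), with a median of 0.16. Areg, which encodes the EGF receptor ligand amphiregulin, was at or under the level of 3 reads in the 3 libraries of D7 and stood at 8.20, 6.86 and 7.49 at D10, at least 25.0-fold higher (limma, adjusted p = 3.5e-07). Ereg, for the related ligand epiregulin, went from 3.60 ± 0.54 at D7 to 6.40 ± 0.40 at D8, 8.90 ± 0.20 at D10 and 5.89 ± 0.49 at D28 (SD, n = 3 each), with a log2 difference of 5.31 from D7 to D10 (standard error 0.32, limma adjusted p = 9.8e-09). Met, the receptor of hepatocyte growth factor, rose by 1.65 at D8 (limma, adjusted p = 0.00012) and fell by 3.42 from D10 to D28 (limma, adjusted p = 7.7e-09).

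FGF receptor genes moved against the feedback genes at D10 or were not called. Fgfr2 fell from 12.41 ± 0.27 at D7 to 9.97 ± 0.19 at D10 (SD, n = 3 each, limma adjusted p = 5.2e-09) and stood at 13.04 ± 0.13 (SD, n = 3) at D28. Fgfr3, the receptor known for restraining growth plate cartilage, fell by 2.23 at D10 (standard error 0.18, limma adjusted p = 1.7e-07) and rose by 2.23 from D10 to D28 (limma, adjusted p = 7.7e-08). Fgfr1 was not called in any of the 5 comparisons, and the largest of its log2 differences was 0.87, from D10 to D28 (limma, adjusted p = 0.00025). Fgf10, an FGF ligand gene, rose from 4.09 ± 0.95 at D8 to 6.29 ± 0.69 at D10 (SD, n = 3 each, limma adjusted p = 0.0018). Of the ligand genes not yet named, some were called higher at D10 against D7 and others lower, among the latter Igf1 and Pdgfb. Igf1 had a log2 difference from D7 of -3.30 (standard error 0.26, limma adjusted p = 1.1e-07), and Pdgfb, whose D10 libraries all held at most 3 reads, was at least 5.88-fold lower (limma, adjusted p = 0.00059).

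Of 20 genes of the kinase cascade itself, 1 was called higher and 3 lower at D10 against D7, a share of 20.0% that is near the 18.9% of all genes, and the median log2 difference was -0.03. Mapk3, which encodes an ERK kinase, had a log2 difference of -0.29 (standard error 0.11) at D10, not past the call rule (limma, adjusted p = 0.046). Nras rose by 1.12 (limma, adjusted p = 2.2e-07), and Ksr1, which encodes a scaffold of the cascade, had a log2 difference of -1.73 at D10 (limma, adjusted p = 2.1e-05) and of 3.19 from D10 to D28 (limma, adjusted p = 1.8e-08). The genes Gab1 and Rps6ka1 were the others called lower at D10. From D10 to D28, 3 of the 20 were called higher and 1 lower (20.0%, against 27.5% of all genes), and Mapk3 was among the former with a log2 difference of 1.07 (limma, adjusted p = 8.5e-07).

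Among 17 further family members and inhibitors, 8 were called higher and 1 lower at D10 against D7 (52.9%, against 18.9% of all genes), with a median log2 difference of 1.02. From D10 to D28, 8 were called lower and none higher (47.1%, against 27.5%), with a median of -0.95. At D8 against D7, 1 was called (5.88%, against 7.04%), and at D28 against D7 4 were called lower and none higher (23.5%, against 17.3%), where 5 of the 10 feedback genes were called higher. Dusp9, a related MAP kinase phosphatase gene, stood at 3.81, 4.71 and 4.56 at D7, at 7.30, 6.98 and 6.34 at D8 and at 9.62, 8.48 and 9.04 at D10, and fell to 3.07, 1.54 and 3.07 at D28. Its log2 difference was 4.69 from D7 to D10 (standard error 0.43, limma adjusted p = 6.0e-07) and -6.48 from D10 to D28 (limma, adjusted p = 8.8e-09), with 1 D28 library at or under 3 reads. Etv1, the third gene of the PEA3 subfamily, had a log2 difference of 2.16 at D10 (limma, adjusted p = 0.00011) and -1.43 from D10 to D28 (limma, adjusted p = 0.0021). Rasa2, a Ras GTPase activating protein gene, and Dusp10 rose by 1.87 and 1.66 at D10 (limma, adjusted p = 3.8e-07 and 4.3e-05). Il17rd, which encodes the FGF signaling inhibitor Sef, fell by 2.90 from D10 to D28 (limma, adjusted p = 1.4e-06).

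Of 18 other genes induced by ERK, 6 were called higher and 1 lower at D10 against D7 (38.9%, against 18.9% of all genes), with a median log2 difference of 0.64. Egr3 was at 4.24 ± 0.58 at D7, 6.58 ± 0.58 at D8 and 7.40 ± 0.17 at D10 (SD, n = 3 each), a log2 difference of 3.16 from D7 to D10 (standard error 0.34, limma adjusted p = 3.2e-06). Egr1, an immediate early transcription factor gene, rose by 1.96 at D10 and fell by 1.98 by D28 (limma, adjusted p = 9.0e-07 and 4.2e-07). Phlda1 and Fosl1 rose by 1.94 and 1.85 at D10 (limma, adjusted p = 8.9e-08 and 0.00010). The ephrin receptor genes of the list went opposite ways after D10. Epha2 fell by 1.96 from D10 to D28 (limma, adjusted p = 4.7e-08), while Epha4 rose by 4.49 (limma, adjusted p = 4.6e-10). Over that interval 7 of the 18 were called lower and 1 higher (44.4%, against 27.5% of all genes).

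**Figure D4:**
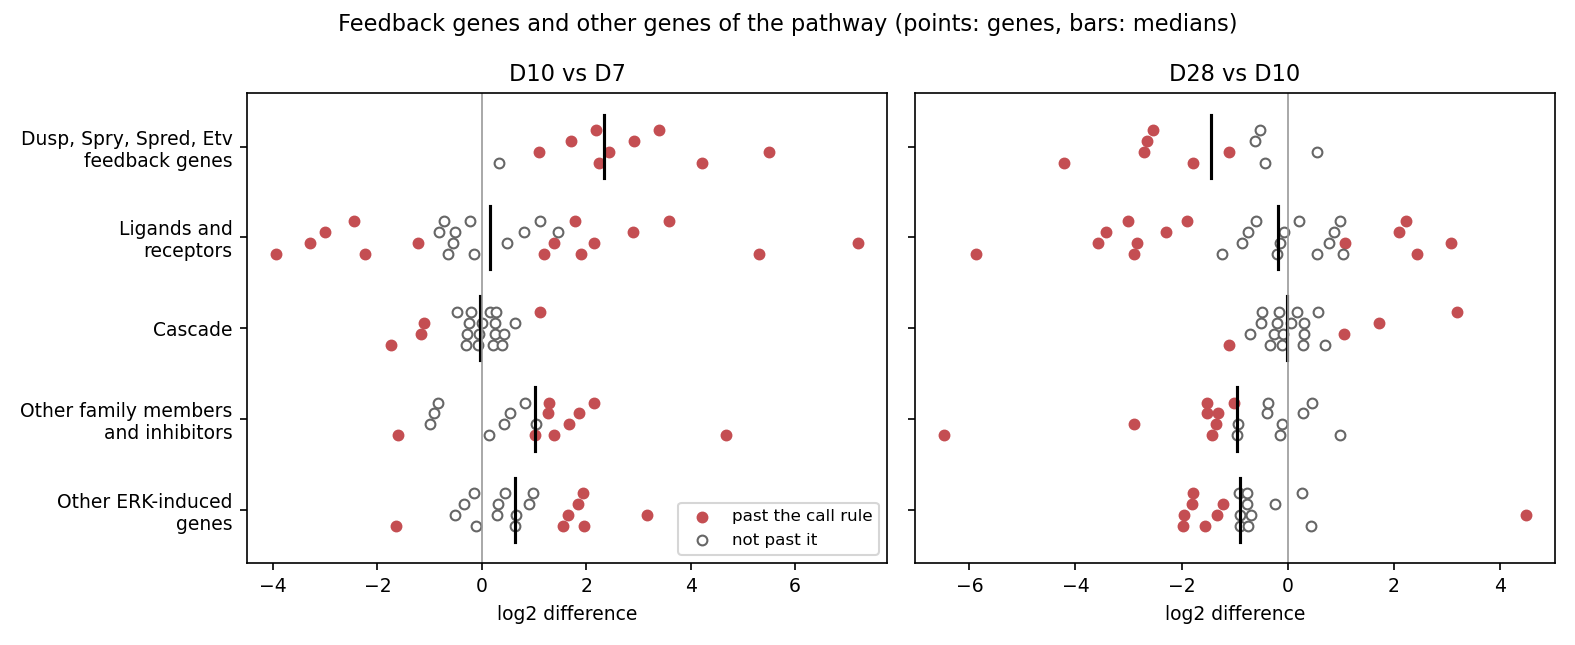
Log2 differences of the 10 feedback genes and of the 4 other pathway lists (rows) for D10 against D7 and D28 against D10. Points are genes, filled where past the call rule, and bars are medians. The cascade genes centre on 0 (medians -0.03 and -0.01). The 10 feedback genes, picked with the rise of some of them at D10 already known, centre on 2.34 and -1.44.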

How the data were processed

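RNA from cell pellets was sequenced as 12 libraries. The authors deposited log2 values, made from Trimmomatic 0.36, HISAT2, Cufflinks and HTSeq read counts per gene that were merged, equalized between samples and log2-transformed after adding 1. The processing notes name GRCm38, and the supplementary methods name hg38 although the symbols are mouse. The test took the 17674 genes that reached a log2 value of 1 in 3 or more libraries. Time point means were fitted with limma 3.58.1 (R 4.3.3, trend on mean expression, 8 residual degrees of freedom), and 5 comparisons that share libraries were made. The fit was tested on simulated data. Relative depth came from 562 genes on levels 5 to 60 of every library, and floors of 3 reads cover counting error only. Positions and union exon lengths are from GENCODE M21. Figures used Python 3.11.15 and matplotlib 3.10.9.

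The genes and lists were chosen with earlier results of these data known. Named besides the 10 genes were the 3 genes most correlated with each, up to 4 called, non-overlapping genes per list and comparison with a mean of at least 5, from which the text draws, and Mapk3 and Fgfr1 to Fgfr3. Some genes this rule names are not reported here. Alternatives covered filters, scaling, pseudocount, low values, a replicate block, limma without trend, the study's own rule, adjusted p alone and each library left out. A planned comparison of protein sequences was not run.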

Additional observations from a re-analysis of the deposited data

How the results depend on the processing

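Depth limits the D7 values of Dusp4 and Etv4, and the 12 libraries allow 3 replicates a time point. In the 10 genes, 3 differences moved by more than 1 replicate SD under an alternative, although most alternatives leave a difference of group means as it is. They were Spred1 from D10 to D28 with median-of-ratios scaling (-0.40) and Spred2 without D28 replicate 2, from D10 to D28 (-0.93) and for D28 against D7 (0.17). Median-of-ratios scaling moved the median of all genes from D10 to D28 from -0.10 to 0.0075, gave 2720 genes called higher and 2044 lower in place of 2430 and 2423, and ended the call of Spred2 (-0.97), the sole call of the 10 genes that a scaling changed, and that of Nras (-0.98). It turned the difference of Fgfr3 between D28 and D7, -0.0031, to 0.054, and leaving out 1 library gave -0.11 to 0.11. Calls of Dusp8, Fosl1 and Epha2 in 1 comparison each were lost without 1 library.

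With the adjusted p alone, without a fold threshold, 8 of the 10 genes were called at D8 against D7 in place of 6, 8 at D10 against D8 in place of 5, 10 at D10 against D7 in place of 9, 9 at D28 against D10 in place of 6, with Etv5 among them as higher, and 6 at D28 against D7 in place of 5. The count of other pathway genes was then 31 at D8 against D7, 45 at D10 against D8, 57 at D10 against D7, 61 at D28 against D10 and 41 at D28 against D7, and that of all genes 3714, 5096, 7288, 9258 and 6592 in the same order. Leaving out 1 library gave 5 to 7 of the 10 genes at D8 against D7, 4 to 6 at D10 against D8, 9 at D10 against D7, 5 to 6 at D28 against D10 and 4 to 5 at D28 against D7.

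No pairing by replicate number was seen. None of 18 same-numbered pairs correlated above 0.1 (-0.058 to 0.067), and 3 of 12 libraries were most like their own number. These correlations run over all genes and could miss a weak shared effect, so pairing was not excluded. With a replicate block, 6, 5, 9, 6 and 5 of the 10 genes were called in the order above, the same counts as without it.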
